A study of Mus musculus with 24 samples.

Results

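The tissue difference between heart and liver was measured in NZB:C57 mice, a conplastic line that carries the nuclear genome of the NZB strain and the mitochondrial DNA (mtDNA) of C57 mice. Its members were all libraries whose labels give strain NZB, mitochondria C57 and tissue heart or liver, which are 6 of the 24 libraries of the series, 3 from heart and 3 from liver. The series compared conplastic mice with parental mice of the NZB and C57BL/6 strains, in 4 genotypes written as nuclear genome, colon, mtDNA. All animals were males aged 10 weeks, 12 per genotype, with no treatment named in the labels. The conplastic lines were made by 10 generations of backcrossing, so the NZB:C57 mice are 1 line, and nuclear DNA of the C57 strain that backcrossing left behind was not analysed here. Hearts were sampled at the left ventricle and livers at the median lobe, RNA of integrity 7.9 or more was pooled from 4 animals in equal parts, and polyadenylated RNA was sequenced on an Illumina Genome Analyzer IIx. The 3 libraries of a tissue are therefore pools of different animals, and the heart and liver pools may hold the same animals. NZB:NZB mice, with the same nuclear genome and NZB mtDNA, served for comparison with 3 pools of each tissue.

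Heart muscle works by sliding of thick and thin filaments in the sarcomere, set off by calcium that enters through channels of the cell membrane and leaves the sarcoplasmic reticulum, and it draws its energy mainly from mitochondrial oxidation of fatty acids. Liver is made mostly of hepatocytes, which secrete most plasma proteins, run the urea cycle, make bile acids, store and release glucose and modify foreign compounds. Cells of both organs share the housekeeping machinery of transcription, translation and protein breakdown, and both hold endothelial cells, fibroblast-like cells and macrophages.

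Values below are normalised reads, the authors' scaled read numbers per gene. A log2 difference is heart minus liver on the scale log2(normalised reads + 1), which understates the change of genes with few reads. The recovered totals were 12471158, 12949956 and 4750330 reads in the hearts of pools 1, 2 and 3, and 17575026, 7294525 and 8720462 in the livers. Differences were tested with limma across all genes, and adjusted p is by Benjamini-Hochberg. A gene was called at an adjusted p under 0.05, and the p-values measure the spread between pools.

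The tissue labels were checked against markers. All 13 cardiomyocyte markers were higher in heart, with a summed level of 232514 to 238366 in hearts and 1.65 to 153 in livers. All 16 hepatocyte markers were higher in liver, with a summed level of 228874 to 255694 in livers and 64.4 to 133 in hearts. Low reads of the other tissue's markers, called traces below, differed between pools, and their source was not tested. Reads of Myh6, the alpha-myosin heavy chain, numbered 0, 240 and 214 in the livers of pools 1, 2 and 3, although pool 1 had the most reads in all. Actc1, the cardiac actin, followed with 0, 162 and 163 reads and Tnnt2, cardiac troponin T, with 0, 47 and 44. Liver pool 1 was not free of such reads. The markers Tnnc1, Tnni3, Mybpc3 and Pln had 10, 4, 4 and 3 there, against 22, 35, 50 and 42 in liver pool 2 and 28, 35, 29 and 52 in liver pool 3. Nkx2-5, a transcription factor of cardiomyocytes, had 0 reads in all 3 livers, the only one of the 13 markers for which this held. In the hearts Alb, serum albumin, had 352, 754 and 218 reads, and none of the 16 hepatocyte markers had 0 reads in all hearts. Beside the level in its own tissue, a cardiomyocyte marker reached at most 0.120% in liver, and a hepatocyte marker at most 0.242% in heart. The part of these reads in the results below was not tested. They bear on the size of a difference: Myh6 differed by 12.87 on the log2 scale with all pools, by 11.07 without liver pool 1, and by 13.86 and 13.66 without liver pools 2 and 3.

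Heart and liver differed in most genes measured. Of 14112 genes tested, 5547 (39.3%) were higher in heart and 5777 (40.9%) higher in liver, 80.2% in all, while 2788 were not called. At least 4-fold apart were 2199 genes higher in heart (15.6%) and 1657 higher in liver (11.7%), 27.3% together. The pools of the 2 tissues did not overlap for 11598 genes (82.2%), 5664 of them higher in heart. The largest differences were found mostly on the liver side: 226 genes were called higher in liver by at least 8 on the log2 scale, and 109 higher in heart. In the next range, from 6 to 8, there were 172 genes on the liver side and 151 on the heart side. Below 6 the order was turned, with 346 for liver and 489 for heart from 4 to 6, and 913 and 1450 from 2 to 4. Of all 15323 genes in the table, tested or not, 595 had reads in all 3 hearts and 0 reads in every liver, and 215 genes the reverse. Since tissues were compared as a whole, fewer cells of a type and less RNA per cell cannot be told apart in any of these values. The balance of the 2 directions depends on the scaling: 49.0% of calls were higher in heart with the authors' scaling and 63.0% (7101 against 4175 genes) with library totals, which moved the median difference of all genes tested from -0.04 to 0.34.

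**Figure D1:**
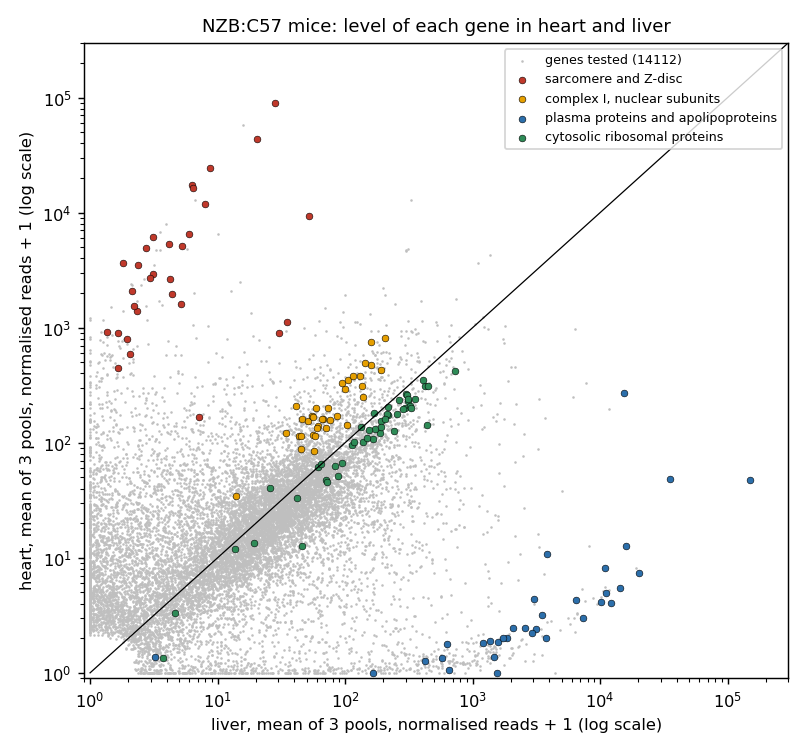
Each point is 1 of the 14112 genes tested, with the mean over 3 liver pools on the horizontal axis and the mean over 3 heart pools on the vertical axis, in normalised reads + 1 on log scales; the line marks equal levels. Sarcomere genes lie far above the line and plasma proteins far below it, complex I subunits lie above it by about the same step, and ribosomal proteins lie along it.

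A small number of genes took a large share of the reads in both tissues. In hearts the 20 genes with the most reads took 33.8%, 34.1% and 33.4% of the reads of pools 1, 2 and 3, and in livers 27.6%, 28.7% and 30.3%. Every heart pool was above every liver pool. The means were 33.8% ± 0.331 (SD, n = 3) and 28.9% ± 1.34 (SD, n = 3), a difference of 4.88 percentage points (exact permutation test, two-sided p = 0.1, the smallest that 3 pools against 3 allow). For the top 10 genes of each library the difference was 5.85 points. For the top 100 genes it was 0.01 points (46.8% ± 0.169 in heart and 46.8% ± 0.998 in liver, n = 3, exact permutation p = 1.0), so the groups overlapped there. With the top 500 genes the shares were 62.6%, 62.7% and 63.0% in hearts and 65.6%, 66.4% and 66.8% in livers, the reverse order. A share of 50% of the reads lay in 147, 143 and 143 genes in hearts and in 142, 132 and 122 genes in livers, so each heart needed slightly more genes than any liver.

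The hearts of NZB:C57 mice stood apart from the other hearts of the series in this measure. In the 9 other hearts the top 20 genes took 11.5% to 14.5% of the reads, and 571 to 746 genes were needed for 50%. In the 9 other livers the top 20 genes took 24.4% to 27.9%, a range that overlaps with that of the NZB:C57 livers. In NZB:NZB hearts the shares were 11.7%, 11.5% and 11.9%, and in NZB:NZB livers 27.0%, 27.1% and 26.7%. NZB:C57 was the 1 genotype of 4 in which the top 20 genes took more of the reads in heart than in liver, which is a description of these pools and was not tested. The share of cell types in these hearts was not tested either.

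**Figure D2:**
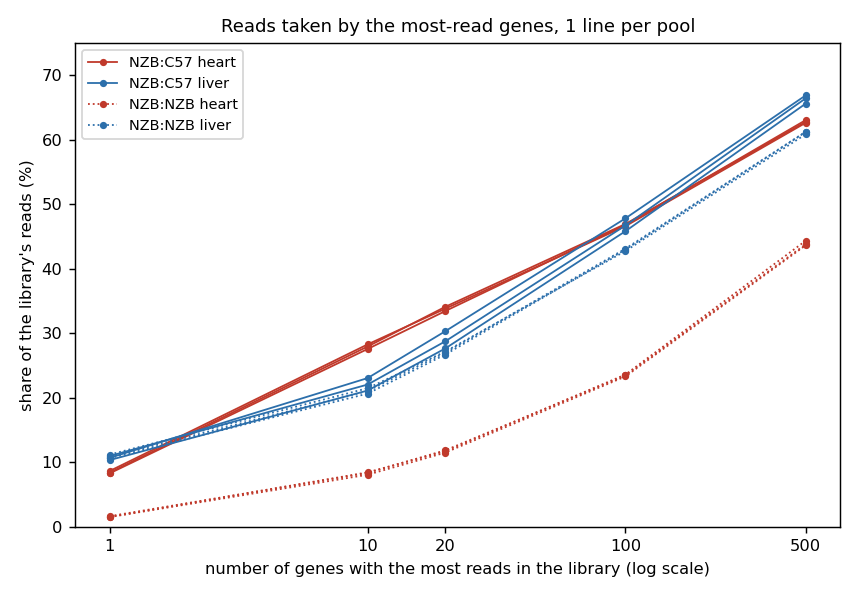
Share of a library's reads (vertical axis, %) taken by its 1, 10, 20, 100 and 500 most-read genes (horizontal axis, log scale), 1 line per pool. NZB:C57 hearts (red, solid) run with the NZB:C57 livers (blue, solid) at 100 genes near 46.8%, while NZB:NZB hearts (red, dotted) stay below all of them at every number of genes.

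The most-read heart genes encode the contractile filaments, calcium handling and oxygen storage. Myh6 (ENSMUSG00000040752, chromosome 14, 54941921 to 54966927, GRCm38), the motor protein of the thick filament, took 8.66%, 8.41% and 8.30% of the reads of the 3 hearts. It shares 29.2% of its words of 31 bases with other genes, foremost Myh7, the beta-myosin heavy chain, so the division of reads between them is uncertain. Mb (myoglobin, ENSMUSG00000018893, chromosome 15, 77015487 to 77050670), the oxygen store of muscle, took 5.46%, 5.37% and 5.38%. Actc1, which forms the thin filament, took 4.03%, 4.26% and 4.09%, and the light chains Myl2 and Myl3 took means of 2.30% and 1.65%. Tnnt2, which anchors the troponin complex, took 1.54%, the calcium pump Atp2a2 of the sarcoplasmic reticulum 1.23%, its inhibitor phospholamban (Pln) 1.23%, the giant spring protein titin (Ttn) 1.12% and tropomyosin Tpm1 0.883%. Of these 10, Atp2a2 was the one with the largest share in liver, 0.0233%. The shares of each of these genes varied little between hearts. Titin, with 116825 bases of exons, came last but 1 of the 10 by reads. Per length, in TPM (reads per kilobase scaled to the same sum in every library), Mb came first in heart at 104340.0 ± 3401 (SD, n = 3), followed by Actc1 at 73456 ± 948 and Myh6 at 36236 ± 1594, while Ttn stood at 276 ± 23.6.

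In liver, secreted plasma proteins led. Alb (ENSMUSG00000029368, chromosome 5, 90460897 to 90476602), the main carrier and osmotic protein of plasma, took 10.3%, 10.98% and 10.7% of the reads of the 3 livers and 114058 ± 4179 TPM (SD, n = 3). Transferrin (Trf), the iron carrier, took 2.17%, 2.44% and 2.90%, with 63.8% of its words shared with other genes, foremost Gm20425. The protease inhibitor Serpina3k took 1.44%, 1.51% and 1.35%. Mup10, a major urinary protein that carries pheromones, took 1.45%, 1.11% and 1.48%, Ahsg (fetuin A) 1.04%, 1.15% and 1.19% and Apoe (apolipoprotein E) 1.15%, 1.18% and 0.941%. The next were Serpina1c and Serpina1a, copies of alpha-1-antitrypsin, the vitamin D carrier Gc and Apoa1, the main protein of high-density lipoprotein, at means of 1.02%, 0.781%, 0.865% and 0.791%. Serpina3k, Mup10, Serpina1c and Serpina1a share 24.2%, 83.2%, 82.2% and 65.2% of their words with other genes, so reads may be divided among copies. Single pools stood apart for a few of the 20 most-read genes. Among liver genes, which were chosen after their values were seen, Fga of fibrinogen took 0.553%, 0.624% and 1.30%, Fgb 0.543%, 0.586% and 1.04%, and complement C3 0.625%, 0.712% and 1.14%, each highest in liver pool 3. In hearts, the globin Hba-a1 took 0.235%, 0.794% and 0.334% and was highest in heart pool 2.

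Among genes with a mean of at least 100 in the higher tissue and no overlap of pools, the 12 largest differences toward heart ran from 11.11 to 12.87 on the log2 scale. They were Myh6, Mb, Myl2, Actc1, Myl3, Tnnt2, Pln, the creatine kinases Ckm and Ckmt2, the Z-disc protein Actn2, Ttn and the actin-binding Xirp2. Myh6 stood at 91692, 89892 and 87003 in the hearts and at 0, 46.6 and 35.2 in the livers (log2 difference 12.87, SE 1.22, adjusted p = 8.54e-06, limma). Mb stood at 57764, 57352 and 56457 and at 0, 26.8 and 17.6 (12.80, SE 1.03, adjusted p = 2.58e-06). Heart pools agreed closely in both genes, while the liver pools ranged from 0 to the trace levels given above, and the standard errors are wide. Xirp2, with 3388, 3360.2 and 4132 in hearts and 0, 1.94 and 0.494 in livers, had less of such traces (11.11, SE 0.32, adjusted p = 1.99e-09).

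The 12 largest differences toward liver ran from -12.08 to -11.21. They were Ugt1a1, Alb, Gc, Ces3a, Serpina3k, Serpina1c, Cyp2c67, Apob, Mug1, Apoa2, Cyp2c50 and Mup10. Ugt1a1, which conjugates bilirubin, had 4767, 4883 and 3518 in the livers and 0 reads in the 3 hearts. It was thus at least 11307-fold higher in liver, with 3 reads per library taken as the floor, and 58.5% of its words occur in other genes, foremost Ugt1a5. Alb stood at 142507, 155398 and 153524 in livers and 29.9, 62.2 and 48.1 in hearts (-11.68, SE 0.23, adjusted p = 1.54e-10). Gc stood at 11842, 12653 and 12092 and at 1.70, 4.87 and 2.65 (-11.62, SE 0.23, adjusted p = 1.79e-10). Apob, the protein of very-low-density lipoprotein, had 9599, 9439 and 11249.5 in livers and 1.87, 3.05 and 4.42 in hearts (-11.30, SE 0.20). The liver pools of Alb, Gc and Apob lay close together.

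Sequence before the start of some of these genes is shown because MEF2 and serum response factor (which binds the CArG box) are known activators of muscle genes, and one liver gene with a TATA box, where the basal machinery binds, is set beside them. The stretches are the 120 bases before the annotated start in RefSeq on GRCm38.p6, 5′ to 3′ along the gene, with the match in capitals.
Xirp2, chr2:67445882-67446001, plus strand: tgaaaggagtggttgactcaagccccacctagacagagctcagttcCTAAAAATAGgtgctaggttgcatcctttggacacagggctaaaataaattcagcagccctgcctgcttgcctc
Actc1, chr2:114052876-114052995, minus strand: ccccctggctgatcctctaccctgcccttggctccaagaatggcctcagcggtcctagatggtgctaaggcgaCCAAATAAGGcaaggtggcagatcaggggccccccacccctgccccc
Myl3, chr9:110763558-110763677, plus strand: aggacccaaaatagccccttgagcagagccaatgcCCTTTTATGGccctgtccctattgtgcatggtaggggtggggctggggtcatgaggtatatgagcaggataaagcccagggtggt
Apob, chr12:7977557-7977676, plus strand: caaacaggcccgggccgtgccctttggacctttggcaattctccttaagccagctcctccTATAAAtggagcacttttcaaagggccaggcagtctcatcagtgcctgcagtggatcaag
The capitals mark a MEF2 motif in Xirp2, a CArG box in Actc1 and Myl3 and the TATA box in Apob, all searched on both strands over windows of 250 bases before to 50 after the start. These genes were picked because their stretch holds a match. The window of Ttn held a MEF2 motif, though not within its 120 bases. The windows of Myh6, Pln, Ckm, Ckmt2, Actn2 and Tpm1 held neither a MEF2 motif nor a CArG box. The TATA box also lay in the windows of the heart genes Actc1, Myh6 and Pln. Xirp2 lies at chromosome 2, 67446002 to 67526614, Actc1 at chromosome 2, 114047282 to 114053548, Myl3 at chromosome 9, 110741861 to 110769798, and Apob at chromosome 12, 7977648 to 8016835 in the annotation of GRCm38. The stretches of Actc1 and Myl3 fall inside these spans, before the start of a shorter annotated transcript, and that of Apob ends inside its span.

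Over all genes tested with a single such window (8470), 1.89% held the MEF2 motif, 1.32% the CArG box and 7.74% the TATA box TATAAA. Among genes at least 4-fold higher in heart with a window (1209), 4.05% held MEF2, 1.9% the CArG box and 10.8% the TATA box. Among those at least 4-fold higher in liver (963), the shares were 2.28%, 1.35% and 13.8%. Of the 69 heart genes with a difference of at least 8 on the log2 scale, 9 held MEF2, 5 the CArG box and 16 the TATA box. In 147 such liver genes, 8 held MEF2, 2 the CArG box and 33 the TATA box. The windows covered 55.0% of the heart genes, 58.1% of the liver genes and 60.0% of all genes tested, so many genes were left out. The shares were not tested between these groups, and a match is a run of letters, not a bound site.

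Every one of 30 sarcomere and Z-disc genes was at least 4-fold higher in heart, with a median log2 difference of 10.03, against a median of -0.04 over all genes tested. Together they took 25.7%, 25.5% and 25.4% of the heart reads and 0.00832% to 0.0221% of the liver reads. Smpx, a small protein of the costamere, had 878, 856 and 1000.3 in hearts and 0, 0.582 and 0.494 in livers (9.42, SE 0.17, adjusted p = 1.01e-10). Cryab, the chaperone alpha-B crystallin, had 1531, 1574 and 1743 and 3.76, 4.85 and 3.95 (8.29, SE 0.10). Nebl (nebulette), a thin-filament protein of the heart, had 489.5, 447 and 407 and 0.314, 0.970 and 0.659 (8.11), and Tpm1 9402, 9430.4 and 9201 and 40.1, 58.8 and 53.7 (7.51). In Cryab and Tpm1 all 3 livers had reads at like levels.

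All 28 genes of cardiac ion channels and calcium handling were called higher in heart, 27 of them at least 4-fold, with a median of 7.66. The inward rectifier subunit Kcnj3 (chromosome 2, 55435970 to 55598145) had 325, 296 and 321 in hearts and 0 reads in the 3 livers, at least 718-fold higher. The potassium channel partner Kcnip2 had 311, 306 and 292 and 0, 0.194 and 0.329. Ryr2, the calcium release channel, had 4887, 4377 and 4999 and 0, 3.88 and 2.96 (10.79). Atp2a2 differed least among the 4 genes named here, with 13311, 12834 and 12796 and 254, 332 and 404 (5.32, SE 0.16), and its liver pools were all well above 0.

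Of 19 cardiac transcription factors tested, all 19 were higher in heart and 15 at least 4-fold, with a median of 2.93. Myocd (myocardin), a partner of serum response factor, had 175, 149.8 and 155 in hearts and 0 reads in livers, at least 366-fold higher. Tbx5 had 80.1, 75.4 and 88.7 and Irx4 75.6, 93.5 and 77.7, also with 0 reads in livers, at least 186-fold and 188-fold higher. Nkx2-5, at 32.1, 36.0 and 33.8, was at least 77.7-fold higher. Smyd1, a muscle methyltransferase, had 374, 368 and 371 in hearts and 4.70, 5.43 and 6.75 in livers (5.82, SE 0.11). Per length, the levels of these regulators in heart lay far below those of the filament proteins, at 19.8 normalised reads per kb for Nkx2-5 and 24.9 for Myocd against 2098 for Tnnt2.

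Of 15 genes of the intercalated disc and desmosome, which join cardiomyocytes end to end, 13 were higher in heart, 10 of them at least 4-fold, and 1 was higher in liver (median 3.85). Gja1, the gap junction protein connexin 43, had 743, 725 and 607 in hearts and 3.14, 3.30 and 4.61 in livers (7.22, SE 0.13). Desmoplakin (Dsp) had 1476, 1303 and 1339.6 and 100.3, 94.9 and 88.2 (3.85, SE 0.08). Desmoglein 2 (Dsg2), a desmosomal cadherin also made by epithelia, went the other way, with 74.5, 69.9 and 70.0 in hearts and 225, 221 and 176 in livers (-1.52, SE 0.10, adjusted p = 7.08e-07).

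Of 13 genes for oxygen storage, creatine kinase and energy transfer, 12 were at least 4-fold higher in heart and 1 was higher in liver (median 5.73). Cd36, which takes up fatty acids, had 2485, 2449 and 2545 in hearts and 14.5, 13.4 and 13.8 in livers (7.39, SE 0.07, adjusted p = 1.18e-11). The creatine transporter Slc6a8 had 171, 171 and 173 and 3.92, 5.43 and 5.76 (4.85). Adenylate kinase 4 (Ak4) was lower in heart, with 46.5, 44.4 and 42.2 against 98.0, 96.1 and 123 (-1.23, SE 0.10), and 11.6% of its words are shared with other genes.

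Genes known from atria and for natriuretic peptides were also high in these hearts, labelled left ventricle. Of 8, 7 were at least 4-fold higher in heart, and clusterin (Clu) was higher in liver at 1050.0, 1109 and 1260.3 against 284, 300.01 and 369 (-1.84, SE 0.12). Nppa, atrial natriuretic peptide, had 3560.1, 3811 and 6694 in hearts and 0, 3.69 and 3.95 in livers (10.62, SE 0.55, adjusted p = 1.16e-07). Bmp10, a growth factor of the atrial wall, had 74.4, 109 and 91.8 and 0 reads in livers, at least 209.5-fold higher. The atrial light chain Myl4 had 472, 519 and 767 and 0.705, 0.776 and 1.65, and sarcolipin (Sln) 205, 251 and 327 and 0, 0.388 and 0.659. Nppa, Myl4 and Sln were each highest in heart pool 3, and Bmp10 in heart pool 2. The share of atrial tissue in the pools was not tested.

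**Figure D3:**
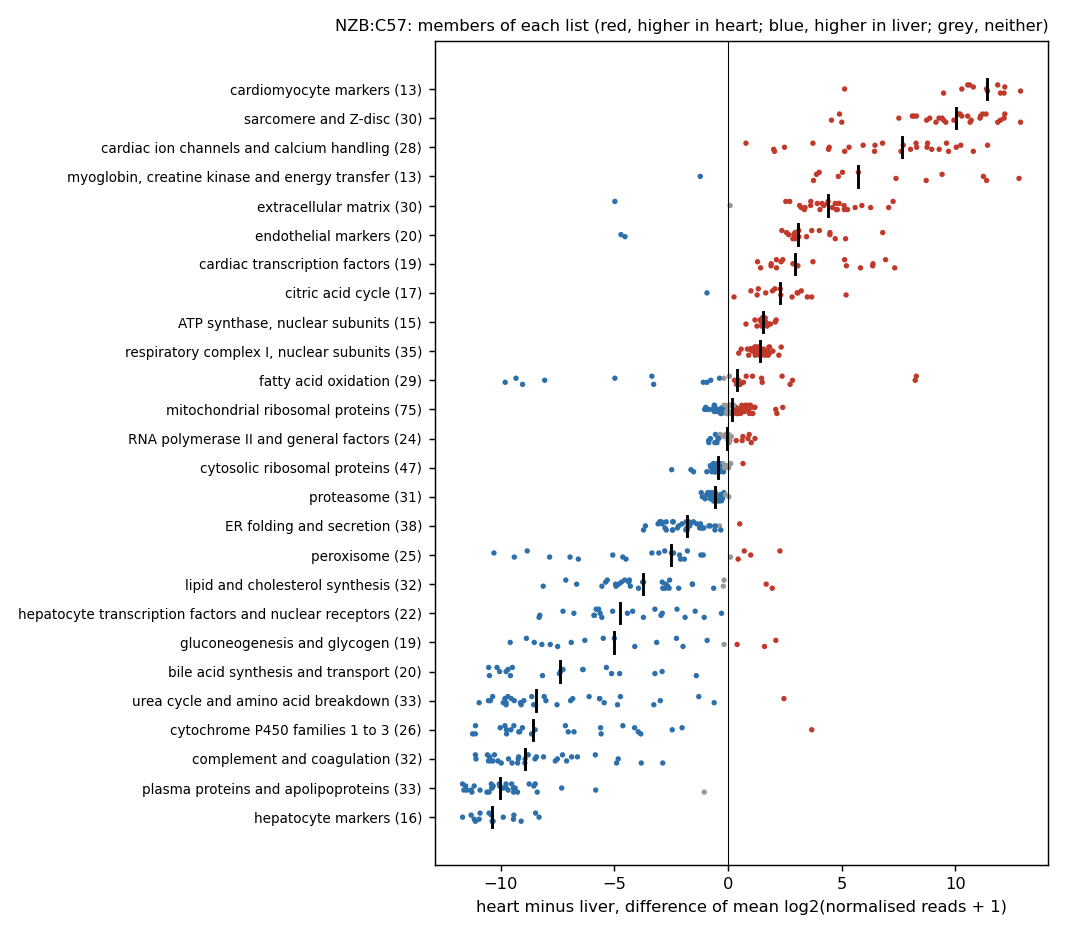
Heart minus liver on the log2(normalised reads + 1) scale (horizontal axis) for each tested member of 26 lists, with the number of tested members in brackets; the black bar is the list's median. Members called higher in heart are red, those higher in liver blue and those not called grey, and the lists run from cardiomyocyte markers at a median of 11.37 to hepatocyte markers at -10.40.

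Nuclear genes of the respiratory chain were higher in heart by a smaller and even step. Of complex I, which takes electrons from NADH, 35 of 35 tested subunits were higher in heart, 2 at least 4-fold, with a median of 1.38; Ndufs5 did not pass the filter on low values. All 13 subunits of complexes II and III were higher (median 1.26), and all 15 of ATP synthase (median 1.52). Ndufs1 had 751, 734 and 748 in hearts and 168, 159 and 146 in livers (2.23, SE 0.08, adjusted p = 5.72e-09). Sdhb of complex II had 607, 611 and 611 and 207, 207 and 174 (1.64), and Uqcrc1 of complex III 946, 945 and 919 and 291, 269 and 255 (1.79). As shares of reads, complex I took 0.799% in heart and 0.211% in liver on average, and ATP synthase 1.40% and 0.345%.

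Cytochrome c oxidase (complex IV) was split by its tissue forms. Of 15 nuclear subunits, 13 were higher in heart and 2 in liver. The muscle forms Cox6a2 (1499, 1599 and 1542 in hearts, 0.157, 3.49 and 1.65 in livers, 9.33), Cox8b (795, 872 and 924 and 0, 0.970 and 0.494, 9.23) and Cox7a1 (519, 479 and 504 and 1.10, 1.75 and 0.659, 7.88) showed the largest differences. Their counterparts Cox6a1 and Cox8a were higher in liver, Cox6a1 at 258, 268 and 261 against 56.7, 63.9 and 54.3 (-2.15, SE 0.08) and Cox8a at 165, 163 and 171 against 69.4, 81.6 and 72.2 (-1.15, SE 0.08). Cox7a2 was higher in heart too, at 206, 207 and 234 against 123, 133 and 111 (0.81). Cox5a, which has 1 form, had 583, 568 and 599 and 177, 171 and 160.2 (1.78), near the step of the other complexes. Reads of Cox6a1 are uncertain because 18.5% of its words are shared with other genes.

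In the citric acid cycle 16 of 17 genes were higher in heart, 10 at least 4-fold, and 1 in liver (median 2.29). Idh3a, of the NAD-linked isocitrate dehydrogenase, had 514, 500.5 and 529 in hearts and 37.9, 35.9 and 44.6 in livers (3.68, SE 0.09, adjusted p = 6.28e-10). Citrate synthase (Cs) had 1360.4, 1282 and 1323 and 164, 159.5 and 146 (3.07), and Ogdh 1992, 1887 and 1855 and 210.4, 204 and 198 (3.22). Succinyl-CoA synthetase has 2 alternative beta subunits, and they parted: Sucla2, which makes ATP, was higher in heart (629, 629 and 631 against 177, 152 and 157, 1.95), and Suclg2, which makes GTP, higher in liver (292, 288 and 304 against 155, 147 and 161, -0.93).

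Fatty acid oxidation had genes on both sides, with 16 of 29 higher in heart, 11 in liver and 2 not called (median 0.37), beside 39.3% and 40.9% of all genes tested. On the heart side stood Oxct1, which burns ketone bodies, at 2056, 1977 and 1961 against 5.41, 6.40 and 4.61 (8.28, SE 0.10), and the mitochondrial enzymes Acadl at 912, 885 and 1023 against 184, 191 and 166 (2.38) and Hadhb at 1639.6, 1523 and 1689.7 against 258, 259 and 216 (2.73). On the liver side, the peroxisomal enzyme Ehhadh had 402, 384 and 359 in livers and 12.6, 11.2 and 9.71 in hearts (-4.98), and the omega-hydroxylase Cyp4a14 714, 625 and 842 and 0, 0.413 and 0 (-9.33). As a share of all reads the list took 1.24% in heart and 1.14% in liver.

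Many steps of metabolism are served by a pair of related genes, of which one is known from muscle or heart and the other from liver. Of 23 such pairs, the heart form was higher in heart in 22, and the liver form higher in liver in 20 and higher in heart in 3 (Pfkl, Cox7a2 and Ucp2). In 19 pairs both forms moved as named. Per exon length, the more abundant form changed between the tissues in 14 pairs in every pool, counting only pairs with reads of both genes in all 6 libraries. That rule left the pairs of Slc2a4, Gys1, Pkm, Cox8b and Ucp3 unjudged. Fabp3, the fatty acid carrier of muscle, stood at 5880.0 normalised reads per kb in heart and 5.74 in liver, and Fabp1, that of liver, at 4.17 and 11918. Cpt1b and Cpt1a, which admit fatty acids to mitochondria, stood at 215 and 4.35 per kb in heart and at 0.547 and 42.8 in liver. The more abundant form also changed in several enzyme pairs of glucose use, but not in every pool for Pfkm and Pfkl or for Pfkfb2 and Pfkfb1. In livers the ratio of the second form to the first ran from 0.863 to 1.14 and from 0.907 to 1.57 in these pairs.

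Pygm and Pygl, which break down glycogen, stood at 361 and 1.0 per kb in heart and at 0.561 and 89.8 in liver. Glycogen synthase Gys2 had 0 reads in hearts and 371, 381 and 351 normalised reads in livers, at least 948-fold higher, whereas Gys1 had 122, 119 and 123 in hearts and 3.06, 2.72 and 3.46 in livers (4.91, SE 0.10). Lactate dehydrogenase was unequal: Ldhb fell from 1081 per kb in heart to 1.59 in liver, and Ldha had 191 and 248, called higher in liver by a small margin (-0.37, adjusted p = 0.00332) that turned to 0.04 with library totals (adjusted p = 0.705). Of Pfkm and Pfkl, which catalyse the committed step of glycolysis, the first stood at 232 per kb in heart and at 6.02 in liver, where Pfkl was at 6.26, so neither form led in liver. Coq8a, a kinase-like protein of coenzyme Q synthesis, was not called (531, 527 and 484 in hearts, 502, 503 and 355 in livers, 0.20, adjusted p = 0.202). Reads of Fabp3, Pkm and Ldhb are partly shared with other genes, at 37.3%, 34.7% and 33.0% of their words.

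**Figure D4:**
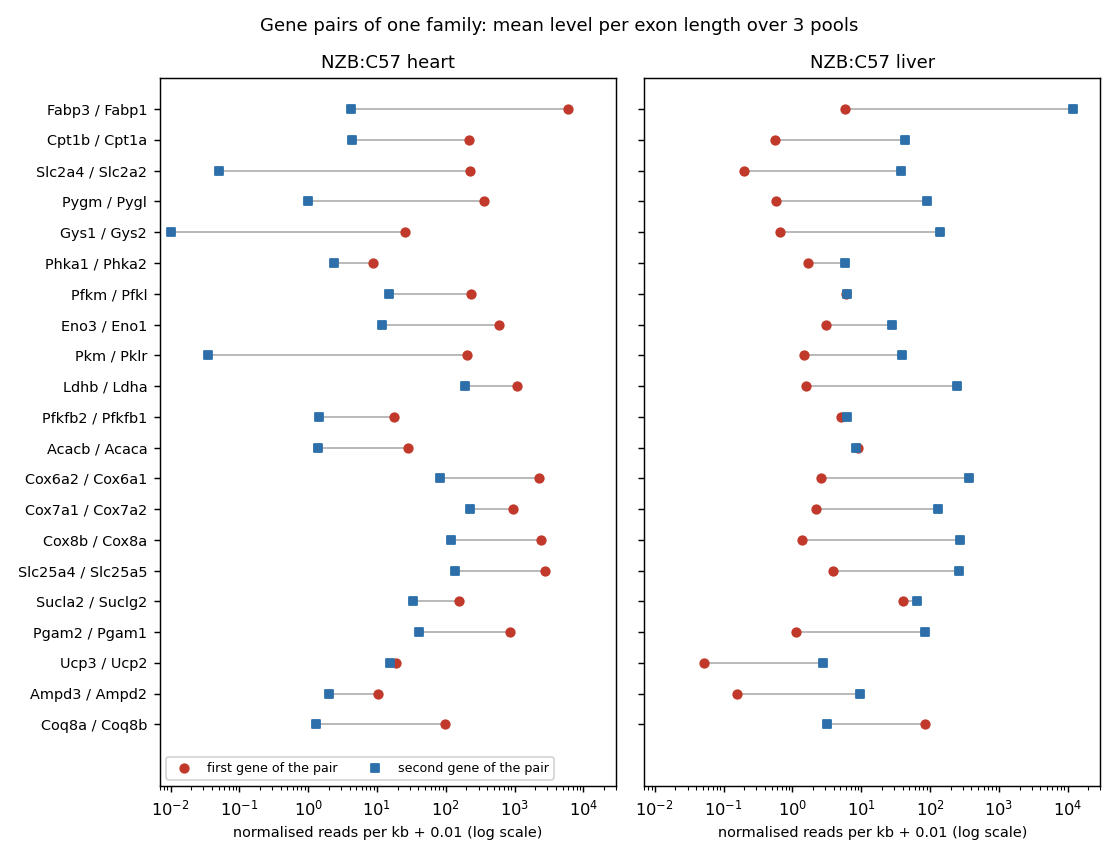
Mean level over 3 pools of the first (red circle) and second (blue square) gene of each of 21 pairs, in normalised reads per kb of exon on a log scale with 0.01 added, in heart (left) and liver (right). In heart the red circle lies to the right in every pair, while in liver the blue square lies to the right in most, with Coq8a the clearest exception at 85.7 against 3.22.

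Secreted proteins made the largest group on the liver side. Of 33 plasma proteins and apolipoproteins, 32 were at least 4-fold higher in liver, with a median of -10.04. The exception was A1bg, a glycoprotein of plasma, which had 2.98, 3.69 and 0 in livers and was not called (adjusted p = 0.113). The list took 23.7%, 25.1% and 25.2% of the liver reads and 0.0364% to 0.0468% of the heart reads. Serpina6, the corticosteroid carrier, had 1596, 1576 and 1510.3 in livers and 0 reads in hearts, at least 4020.5-fold higher. Apoa5, which regulates triglycerides, had 1721, 1379 and 1339 and 0.340, 0.330 and 0.442 (-10.07, SE 0.11). Apoe differed least among the most-read of them, with 15811, 16728 and 13511 in livers and 269, 285 and 253 in hearts (-5.83, SE 0.11), and its heart level was well above the traces of the hepatocyte markers. Of 32 complement and coagulation genes, 32 were at least 4-fold higher in liver (median -8.94). Prothrombin (F2) had 2311, 2463 and 2493 in livers and 0.764, 1.24 and 0.883 in hearts (-10.28, SE 0.10), and plasminogen (Plg) 3476, 3733 and 4266 and 1.61, 1.65 and 1.99 (-10.44). All 16 tested major urinary protein genes were higher in liver (median -9.62), with 3.76%, 3.003% and 3.32% of liver reads, and 3 more did not pass the filter.

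Nitrogen and bile acid metabolism lay on the liver side almost without exception. Of 33 genes of the urea cycle and amino acid breakdown, 32 were higher in liver, 30 at least 4-fold, and 1 was higher in heart (median -8.47). Arginase 1 (Arg1) had 1354, 1494 and 1766 in livers and 0.594, 0.578 and 0.662 in hearts (-9.89, SE 0.10, adjusted p = 1.33e-11), and ornithine transcarbamylase (Otc) 963, 932 and 795 and 0.0849, 0.330 and 0.221 (-9.53). The exception was Got1, the cytosolic aspartate aminotransferase of the malate-aspartate shuttle, at 573, 568 and 610.4 in hearts and 98.1, 102 and 116 in livers (2.46, SE 0.08). All 20 tested genes of bile acid synthesis and transport were higher in liver, 19 at least 4-fold, with a median of -7.39 (-8.02 with genes at 0 reads in hearts set at their lower bound). Akr1d1, a reductase of bile acid synthesis, had 964, 921 and 738 and 0 reads in hearts, at least 2252-fold higher. Abcb11, the bile salt export pump, had 1068, 1121 and 1136 and 0.170, 0.825 and 0.442 (-9.57, SE 0.15). Slc27a5, which activates bile acids, had 1571, 1507 and 1294 and 0.424, 0.248 and 0.442 (-10.05).

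Enzymes that modify foreign compounds followed, with 25 of 26 cytochromes P450 of families 1 to 3 at least 4-fold higher in liver (median -8.57; -8.85 with genes at 0 reads at their bound). Cyp2j5 had 689, 739.6 and 568 in livers and 0.170, 0.165 and 0.442 in hearts (-9.05, SE 0.13). Cyp2c39 had 621, 566 and 588 and 0 reads in hearts, at least 1525-fold higher, and 26.9% of its words occur in other genes. Cyp1b1, a form known from outside the liver, was the 1 member higher in heart, at 15.5, 16.1 and 21.9 against 0.549, 0 and 0.988 (3.68, SE 0.26, adjusted p = 1.06e-06). Of 38 genes of conjugation and export, 36 were higher in liver and 2 in heart (median -6.02). The efflux pump Abcb1a was 1 of these 2, with 41.1, 39.5 and 28.7 in hearts and 4.31, 4.85 and 3.46 in livers (2.84, SE 0.17), and the glutathione transferase Gstm2 the other (0.33, adjusted p = 0.0427). The call of Gstm2 was lost without any one of 5 pools, at an adjusted p of 0.0854 to 0.122, and its values overlapped between tissues at 75.05, 72.7 and 75.1 and 57.5, 73.0 and 49.1.

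Of 19 genes of gluconeogenesis and glycogen, 15 were higher in liver and 3 in heart (median -5.005). Fbp1, a rate-controlling enzyme of gluconeogenesis, had 683, 756 and 798 in livers and 0.509, 0.413 and 0.883 in hearts (-8.87, SE 0.12). The glucose transporter Slc2a2 had 223, 226 and 209 and 0, 0.248 and 0.442 (-7.50). Pck2, the mitochondrial form of phosphoenolpyruvate carboxykinase, was among those higher in heart, at 15.3, 13.2 and 12.4 against 2.35, 2.72 and 2.14 (2.10, SE 0.15). Of 32 genes of lipid and cholesterol synthesis, 28 were higher in liver and 2 in heart (median -3.74). Mttp, which loads lipid onto apolipoprotein B, had 378, 395 and 389 in livers and 7.22, 7.10 and 7.51 in hearts (-5.55, SE 0.07). The 2 genes higher in heart were Lpin1 (182, 168 and 178 against 39.7, 37.1 and 61.7, 1.94) and Acacb, whose product makes the malonyl-CoA that restrains Cpt1 (294, 273 and 257 against 86.0, 73.7 and 97.1, 1.68).

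All 22 hepatocyte transcription factors and nuclear receptors were higher in liver, 18 at least 4-fold and 21 of them called with library totals (median -4.75). Hnf4a had 339, 368 and 506 and 0.170, 0.165 and 0.442 (-8.32, SE 0.16), and Creb3l3 414, 456 and 412 and 0.340, 0.165 and 0.662 (-8.28). The bile acid receptor Nr1h4 had 206, 191 and 182 and 0.509, 0.330 and 0 (-7.26, SE 0.16).

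The machinery of secretion was higher in liver by a moderate step. Of 38 genes of folding and export in the endoplasmic reticulum, 36 were higher in liver and 16 at least 4-fold (median -1.81). Xbp1, a transcription factor of secretory cells, had 448, 459.7 and 596 in livers and 56.5, 64.5 and 61.2 in hearts (-3.01, SE 0.11), and P4hb, a protein disulfide isomerase, 1518, 1672 and 1754 and 217, 225 and 217 (-2.90). Srp14, of the signal recognition particle, was the 1 member called higher in heart (0.51, adjusted p = 3.54e-04).

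Housekeeping complexes lay near the median of all genes, where the scaling decides the direction of a call. Of 47 cytosolic ribosomal protein genes, 36 were called higher in liver and 1 in heart (median -0.45), but 7 and 9 with library totals (median -0.04). Of 31 proteasome genes, 29 were higher in liver and none in heart (median -0.56), but 14 and 3 with library totals. Of 75 mitochondrial ribosomal protein genes, 35 were higher in heart and 20 in liver (median 0.16), and 53 and 7 with library totals. With the authors' scaling, 39.3% of all genes tested were higher in heart and 40.9% in liver. Single members stood clear of this band under each scaling tried. Mrps23 was higher in heart at 102, 107 and 113 against 18.3, 19.99 and 20.3 (2.40, SE 0.08), and Rpl3 higher in liver at 445, 446 and 425 against 141, 152 and 129 (-1.63, SE 0.08; 37.6% of its words are shared with other genes).

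Genes of other cell types differed as well. Of 30 extracellular matrix genes, 28 were at least 4-fold higher in heart and Fn1 (fibronectin, which hepatocytes also secrete) higher in liver (median 4.39). Col3a1, a fibrillar collagen, had 949.7, 996 and 842 in hearts and 35.1, 36.7 and 28.6 in livers (4.76, SE 0.11), and Fn1 70.3, 78.5 and 78.6 and 2069, 2128 and 3215 (-4.98). Of 20 endothelial markers, 18 were at least 4-fold higher in heart (median 3.09). Fabp4, a fatty acid carrier of capillaries and fat cells, had 549, 579 and 591 and 4.39, 4.27 and 3.79 (6.80, SE 0.08), and Cdh5, the junction protein VE-cadherin, 372, 356 and 305 and 15.9, 15.1 and 12.5 (4.48). The 2 members higher in liver, Stab2 and Clec4g, are known from the sinusoids of liver: Stab2 had 44.2, 40.8 and 51.9 in livers and 0.764, 0.495 and 1.10 in hearts (-4.71), and Clec4g 34.8, 34.4 and 24.2 and 0.255, 0.413 and 0.442 (-4.54).

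Of 17 markers of fibroblasts, stellate cells and pericytes, 12 were at least 4-fold higher in heart and 4 were higher in liver (median 3.92). Cspg4, a proteoglycan of pericytes, had 144, 151 and 162 in hearts and 0 reads in livers, at least 349-fold higher. Rgs5, also of pericytes, had 870.1, 851 and 839 and 20.6, 16.9 and 16.6 (5.49, SE 0.09). On the liver side were Lrat and Reln of stellate cells (-2.19 and -1.66), Hgf (-1.93) and vitronectin (Vtn), which hepatocytes also make (-7.66, SE 0.08). Macrophage markers were parted in the same manner, with 11 of 19 higher in heart, 5 in liver and 3 not called (median 0.66). Over all genes tested the shares were 39.3% and 40.9%. Clec4f, which marks Kupffer cells, the macrophages of liver, had 79.5, 77.4 and 61.6 in livers and 0.255, 0 and 0 in hearts (-6.09, SE 0.16), and Cd5l 194, 167 and 124 and 0, 0.578 and 0 (-7.10). The lysozyme gene Lyz2 had 243, 261 and 249 in hearts and 47.3, 46.0 and 37.2 in livers (2.51, SE 0.10), and the complement chain C1qa 47.6, 46.7 and 41.7 and 22.03, 21.9 and 19.4 (1.07).

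Of 7 smooth muscle markers tested, 6 were higher in heart and Mylk in liver (median 2.78), with Acta2, smooth muscle actin, at 122, 122 and 136 in hearts and 3.61, 4.27 and 3.13 in livers (4.78). Red-cell genes were higher in heart, 6 of 6 tested. Hba-a1 had 2489.8, 8484 and 3499.5 in hearts and 203, 405 and 320.2 in livers (3.81, SE 0.42, adjusted p = 2.28e-05), highest in heart pool 2. It shares 75.5% of its words with other globin genes. All 6 tested skeletal muscle markers were higher in heart (median 5.67; 6.83 with genes at 0 reads in livers at their bound). Mybpc2, a myosin-binding protein of fast muscle, had 308, 338 and 369 and 0 reads in livers, at least 774-fold higher, and Acta1, which heart also makes, had 4959, 5297 and 5808. Myh1, Myh4 and Mylpf, which define fast skeletal fibres, did not pass the filter on low values. Of 3 adipocyte markers tested, 3 were higher in heart, and Adipoq (adiponectin) had 2.29, 17.99 and 19.2, lowest in heart pool 1.

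The tissue difference was next compared with that of NZB:NZB mice, which differ from NZB:C57 mice by mtDNA and by whatever else separates the lines. Of 14968 genes tested over all 24 libraries, the difference was shifted toward heart in 2424 (16.2%) and toward liver in 1147 (7.66%), 23.9% in all. In 1825 genes a difference toward heart was wider in NZB:C57, in 813 one toward liver was wider, in 490 it was narrower, and in 443 the direction differed. These counts depend on the scaling: with library totals 1430 genes were shifted toward heart and 6557 toward liver, with the median of all genes at -0.40, so the direction of the balance turned. Among the 14112 genes that passed the filter in the NZB:C57 libraries, 2200 were at least 4-fold higher in heart on group means in NZB:C57. In NZB:NZB the number was 1515. Genes that would pass only in another genotype are left out, which favours NZB:C57 in these counts. In mice with the BL/6J nucleus the number was 1604 with C57 mtDNA and 1548 with NZB mtDNA.

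Genes of heart muscle led the shift toward heart. Of 30 sarcomere genes 27 were shifted toward heart and 1 toward liver, and of 28 ion channel and calcium handling genes 22 and 0. The sarcomere count was 19 and 3 with library totals, 23 and 1 with edgeR, 16 and 1 with DESeq2, and 26 and 1 without NZB:C57 liver pool 1. The medians of the tissue difference in these lists were 10.03 and 7.66 in NZB:C57 and 7.69 and 5.04 in NZB:NZB. Mb had 57191 ± 668 (SD, n = 3) in NZB:C57 hearts and 4823 ± 437 in NZB:NZB hearts, with 14.8 ± 13.6 and 16.1 ± 9.29 in the livers (difference of differences 4.51, SE 0.97, adjusted p = 0.00123, limma). Myh6 had 89529 ± 2366 and 8397 ± 621 in hearts, and 27.3 ± 24.3 and 26.5 ± 14.7 in livers (4.47, SE 1.13, adjusted p = 0.00525). Without NZB:C57 liver pool 1, in which both genes had 0 reads, the shifts were 3.01 for Mb and 2.67 for Myh6, and with DESeq2 neither was called (adjusted p = 0.0695 and 0.113). Kcnj3 did not turn on that pool, since it had 0 reads in all NZB:C57 livers, with 314 ± 15.6 in NZB:C57 hearts and 19.6 ± 3.98 in NZB:NZB hearts (4.21, SE 0.17, adjusted p = 1.01e-13). NZB:NZB livers had 0.194 ± 0.0818, so the size of this value depends on the 1 added before the logarithm. Mybphl, a myosin-binding protein of atria and conduction tissue, had 214 ± 61.8 and 14.4 ± 5.57 in hearts (4.10, SE 0.33). Nppa (4.24) and Tnnt2 (4.13) completed the 6 highest of the genes ranked. Ranked were called genes with a mean of at least 100 in a group and no overlap of tissue differences between genotypes. Predicted gene models were left out. Without NZB:C57 liver pool 1, Nppa and Tnnt2 stood at 3.49 and 3.07. All 8 atrial and natriuretic genes were shifted toward heart, Bmp10 by 4.69, and 7 with each of library totals, edgeR and DESeq2. Nkx2-5 showed no such shift (-0.20, adjusted p = 0.403).

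By the same ranking, the 6 largest shifts toward liver were all major urinary proteins, Mup17, Mup7, Mup11, Mup14, Mup20 and Mup16, from -7.99 to -4.70. Mup17 had 703 ± 205 (SD, n = 3) in NZB:C57 livers and 9.02 ± 5.77 in NZB:NZB livers, with 0.166 ± 0.218 and 4.66 ± 4.65 in the hearts (-7.99, SE 0.80, adjusted p = 9.66e-08). Mup7 had 2276 ± 494 and 128 ± 40.7 in livers (-7.18, adjusted p = 8.99e-05). Of 19 genes of the family tested here, 13 were shifted toward liver and 0 toward heart, and 10 to 12 toward liver with edgeR, DESeq2 or library totals. The 6 genes share 64.5% to 96.7% of their words with other genes, mostly of the same family, so the member that gave a read is uncertain. Mup1, the family member with the most reads after Mup10, showed no shift that passed (-0.57, adjusted p = 0.294).

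Liver groups were shifted to different extents. None of the 16 hepatocyte markers was shifted with the authors' scaling (limma, adjusted over all genes). With library totals 1 was shifted toward heart and 3 toward liver. Their median tissue difference was -10.40 in NZB:C57 and -9.81 in NZB:NZB. Alb gave -0.52 with the authors' scaling (limma, adjusted p = 0.638). Of 20 genes of bile acid synthesis and transport, 13 were shifted toward liver and 1 toward heart (medians -7.39 and -6.47), but 4 and 0 with edgeR and 5 and 1 with DESeq2. Conjugation and export genes divided into 14 toward liver and 8 toward heart of 38, and complement and coagulation genes into 11 and 4 of 32. Over all genes the shares were 7.66% and 16.2%. The conjugation split turned to 4 toward liver and 7 toward heart with edgeR, and 5 and 8 with DESeq2. For complement and coagulation the numbers were 2 and 1 with edgeR, and 5 and 2 with DESeq2. The direction for respiratory genes depended on the scaling: none of 36 tested complex I subunits was shifted with limma or edgeR on the authors' scaling, or with DESeq2 on its own size factors, with median tissue differences of 1.38 and 1.44, and 32 were shifted toward liver with library totals. For the 13 subunits of complexes II and III the numbers were 0 and 12. Of 17 citric acid cycle genes 3 were shifted toward heart, a share near the 16.2% of all genes, with 0 by edgeR and 10 toward liver with library totals. Markers of other cell types differed among themselves. Of 20 endothelial markers 17 and of 30 extracellular matrix genes 20 were shifted toward heart, and 13 and 14 with library totals. Fibroblast, stellate cell and pericyte markers gave 13 of 17, and macrophage and Kupffer cell markers 12 of 19 (3 with library totals). None of 3 T and NK cell, 8 B and plasma cell, 7 cholangiocyte and 7 adipocyte markers was shifted toward heart, with 1, 2, 2 and 1 toward liver, and 2 of 8 nerve and Schwann cell markers were. Kdr, a receptor for vascular growth factor, had 409 ± 34.5 in NZB:C57 hearts and 219 ± 5.01 in NZB:NZB hearts, and 24.4 ± 2.87 against 65.3 ± 5.99 in livers (2.28, SE 0.22). The part of cell makeup in these shifts was not tested.

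**Figure D5:**
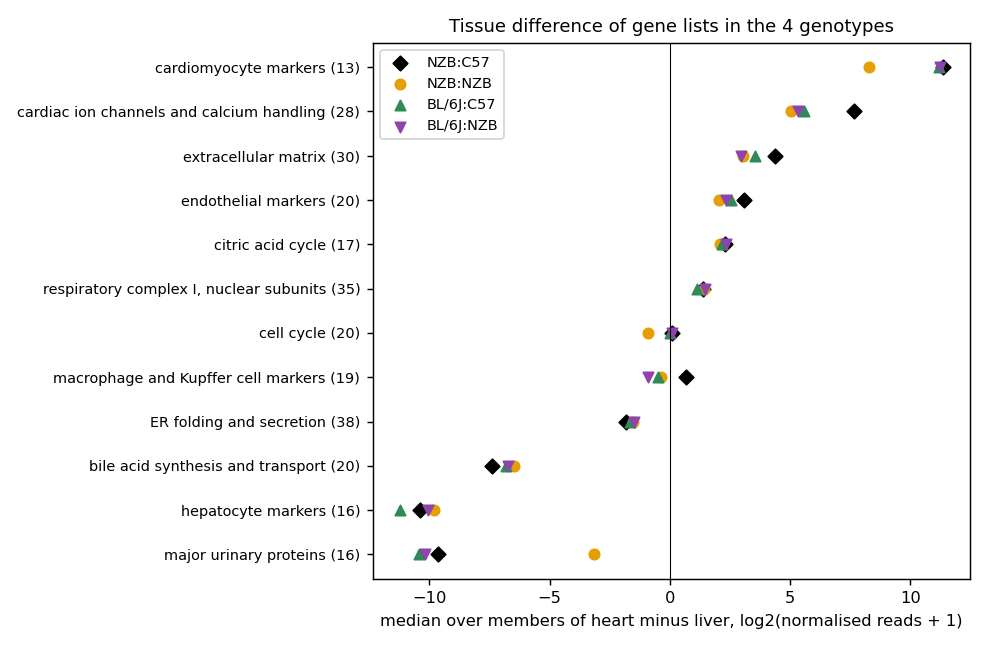
Median of heart minus liver over the members of 12 lists (horizontal axis, log2 of normalised reads + 1) in each of the 4 genotypes, with the number of members tested in NZB:C57 in brackets. NZB:C57 (black diamonds) lies farthest to the right for ion channels, extracellular matrix and endothelial markers, and close to the others for complex I and the citric acid cycle. For cardiomyocyte markers and major urinary proteins it is NZB:NZB (orange) that stands apart, at 8.28 and -3.16 against 11.37 and -9.62 in NZB:C57.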

How the data were processed

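Polyadenylated RNA of 24 pools was sequenced, and 1 table of 15323 genes holds the authors' values. The submitters' processing notes name cutadapt 1.2.1, Bowtie2 2.0.6, RSEM 1.2.3, edgeR (version not given) and the build GRCm38, and their settings are not given in the sources used here. The deposited unit is a signal, scaled reads per gene: within each library 99.99% or more of the values are whole reads times 1 constant, to within 0.01 reads, and the constants equal those of edgeR's CPM with trimmed-mean (TMM) factors over all 24 libraries. The recovered reads number 4750330 to 17575026 in the 6 libraries, and no source used here says whether estimated numbers were rounded before scaling.

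Groups come from the labels. Genes at 1 or more in 3 or more of the libraries fitted were tested with limma 3.58.1 (R 4.3.3, trend) on log2(value + 1), with Benjamini-Hochberg adjustment at 0.05. A second rule also asked for 4-fold. The heart minus liver fit used the 6 NZB:C57 libraries, and the comparison with NZB:NZB all 24. The 95% binomial interval (Wilson) of a top-20 share is at most 0.0849 points wide and covers counting error only. Alternatives were edgeR 4.0.16 and DESeq2 1.42.0 on recovered reads, other scalings, added constants and filters, a replicate block, and each pool left out.

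Of the genes, 15106 (98.58%) have a symbol in the annotation. Counting was not stated to use strand, so overlapping genes may share reads, and 2166 genes have at least 10% of their 31-base words in another gene. The 47 gene lists and 23 pairs (977 of 1003 list names in the table) were chosen with earlier results of these data known, as was the comparison itself. Genes named are the 12 highest and 12 lowest differences among called genes without overlap and with a mean of at least 100, the 10 with the most reads per tissue, up to 4 members of each list per direction by p, all pairs, and the 6 highest and lowest shifts between genotypes. Predicted gene models were left out of the highest and lowest genes. Shifts were ranked among called genes with a mean of at least 100 in a group and no overlap of tissue differences between genotypes. A1bg, C3, Fga, Fgb and genes given as partners of another were chosen after their values were seen. Some genes named by this rule, and a motif searched, are not reported here. Replicate numbers were not treated as pairs.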

Additional observations from a re-analysis of the deposited data

Results flagged for a closer look

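The difference between heart and liver was tested for a change between NZB:C57 and NZB:NZB mice (limma interaction over 24 libraries), and it differed in 3571 genes: 2424 were shifted toward heart and 1147 toward liver in NZB:C57. The balance of these counts turns with library totals, as given above.

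Shifts were ranked among called genes with a mean of at least 100 in a group and no overlap of tissue differences between genotypes. Predicted gene models were left out. In this ranking 6 muscle genes had the largest shifts toward heart. They were Mb at 4.51, Myh6 at 4.47, Nppa at 4.24, Kcnj3 at 4.21, Tnnt2 at 4.13 and Mybphl at 4.10. When each pool was left out in turn the shift lay between 3.01 and 5.41 for Mb, 2.67 and 5.46 for Myh6, 3.49 and 4.64 for Nppa, 4.08 and 4.35 for Kcnj3, 3.07 and 4.74 for Tnnt2, and 3.88 and 4.37 for Mybphl. The lowest values of Mb, Myh6, Nppa and Tnnt2 came without NZB:C57 liver pool 1, which had 0 reads of each of these 4 genes. The part of these liver traces in the shifts was not tested.

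By the same ranking, the 6 largest shifts toward liver were all of major urinary proteins. They were Mup17 at -7.99, Mup7 at -7.18, Mup11 at -6.61, Mup14 at -5.89, Mup20 at -5.79 and Mup16 at -4.70. Their ranges with each pool left out were -8.97 to -7.29, -9.04 to -6.09, -7.89 to -5.86, -6.99 to -5.32, -6.84 to -5.26 and -5.09 to -4.31. NZB:NZB heart pool 1 had 0 reads of Mup17, Mup7 and Mup11, while the other NZB:NZB hearts had some. For each of the 6 genes the value farthest toward liver came without that pool. These genes share most of their sequence with each other.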

How the results depend on the processing

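Of 324 named gene results, 310 kept their direction and their side of the threshold under each alternative run. Ldha turned from -0.37 to 0.038 with library totals (adjusted p = 0.705, limma). Genes whose calls were lost under at least 1 alternative include Aurka, Ccnb1, Cidec, Cish, Dbp, Gstm2, Gtf2a2, Ppp1r3c and Rpl28, and calls were also lost for the shifts of Mb and Myh6 between genotypes; Coq8a gained a call. The number of genes at least 4-fold higher in heart was 2199, against 1262 with 5 added before the logarithm and 1323 among genes with reads in all 6 libraries, a filter chosen after seeing the data that tests fewer genes. Shifts between genotypes numbered 2424 toward heart and 1147 toward liver, against 1514 and 592 with edgeR, 1659 and 478 with DESeq2, and 1430 and 6557 with library totals; the cause was not tested. The difference in read share was 4.88 points for the top 20 genes and 0.01 for the top 100. With each pool left out, calls ranged from 5275 to 5558 for heart and 5485 to 5713 for liver, 4-fold calls from 2175 to 2227 and 1638 to 1679, shifts from 2162 to 2353 and 898 to 1058, and the top-20 difference from 4.25 to 5.58 points. With the replicate number as a block, calls were 5518 and 5712 and shifts 2243 and 1033. Hearts and livers with the same number deviate together at correlations of 0.105, 0.04 and 0.046, each above the other pairings (a hint from the data, not the design), and the labels give no more than a shared number. Heart pool 3, with 4750330 reads, limits what can be said of genes with few reads.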

Other observations

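Antioxidant and NADPH-forming enzymes had members on both sides, with 11 of 26 higher in heart, 14 in liver and 1 not called, beside 39.3% and 40.9% of all genes tested. Gpx3, an extracellular glutathione peroxidase, had 224, 249 and 268 in hearts and 2.67, 3.49 and 1.81 in livers (6.11, SE 0.16), and the mitochondrial NADPH source Idh2 1173, 1197 and 975 and 96.5, 95.5 and 80.8 (3.60, SE 0.11). Catalase (Cat), which breaks down peroxide in peroxisomes, had 3907, 3935 and 3266 in livers and 159.9, 162 and 167 in hearts (-4.49, SE 0.09). Of 25 peroxisome genes, 20 were higher in liver and 4 in heart, and Gnpat, which starts the synthesis of ether lipids, stood at 226, 215 and 215 in hearts and 44.8, 45.2 and 42.6 in livers (2.28, SE 0.07). In the growth hormone and IGF axis the ligand and its receptor lay on opposite sides. Igf1 had 1303, 1362 and 1209 in livers and 24.1, 28.0 and 20.8 in hearts (-5.68), and Igf1r 17.7, 16.8 and 19.2 in hearts and 0.470, 0 and 0.494 in livers (3.86, SE 0.19). Of the 2 transferrin receptors, Tfrc was higher in heart (439, 338 and 349 against 54.1, 81.5 and 103, 2.26) and Tfr2 higher in liver (1237, 1281 and 1432 against 0, 0.578 and 0.442, -9.97).

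Clock genes were mixed, with 5 of 19 higher in heart, 8 in liver and 6 not called, beside 39.3% and 40.9% of all genes tested. The split turned to 6 and 4 with library totals. Single pools stood apart in genes known for daily rhythm. Dbp had 96.8, 48.8 and 46.1 in hearts and 42.7, 17.1 and 15.1 in livers, highest in pool 1 of both tissues, and its call was lost in the fit of all 24 libraries (adjusted p = 0.147, limma). Per1 had 15.1, 15.4 and 29.1 and 1.57, 1.94 and 9.06, highest in pool 3 of both tissues (2.24, SE 0.49). The time of day of sampling was not analysed here.

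Of 20 cell cycle genes, 6 were higher in heart, 3 in liver and 11 were not called, beside 39.3% and 40.9% of all genes tested. Cenpf, a kinetochore protein, had 24.8, 19.97 and 17.2 in hearts and 2.19, 4.27 and 1.98 in livers (2.54, SE 0.24), and Tyms, which makes thymidylate, 28.8, 26.0 and 16.1 in livers and 5.69, 5.86 and 3.97 in hearts (-1.97, SE 0.22). Genes of general transcription by RNA polymerase II were called in both directions, 7 higher in heart and 8 in liver of 24, each below the same shares of all genes. With library totals the counts were 14 and 3. Markers of bile duct cells, 5 of them tested, were split into 2 higher in heart and 3 in liver (median -1.10). Their levels stayed low in both tissues apart from Spp1 (osteopontin). Spp1 had 50.7, 50.8 and 40.8 in livers and 0.340, 0.495 and 0.662 in hearts (-5.01). Lymphocyte markers were few and low: Cd3e of T cells had 5.02, 3.30 and 5.27 in livers and 0.424, 0 and 0 in hearts (-2.28, SE 0.23). Dbh, the noradrenaline-forming enzyme of sympathetic nerves, had 10.0, 9.99 and 9.71 in hearts and 0 reads in livers, at least 22.7-fold higher.

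By chromosome, the X chromosome had the largest share of tested genes at least 4-fold higher in heart, 87 of 442 (19.7%, against 15.6% over all genes), and, leaving aside the 6 genes tested on Y, the smallest share 4-fold higher in liver, 26 genes (5.88%, against 11.7%). These shares are descriptions and were not tested.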
